A study of Bos taurus with 72 samples.

Results

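Of the 8639 genes ranked here, the 100 that were lowest in complete medium relative to every other medium were described. Bovine mammary epithelial cells (BMECs) were cultured for 6 h in 1 of 12 media, and the 100 genes were selected on their measured RNA levels in those media. The rule took the 8643 genes that had an Ensembl bovine identifier and whose mean FPKM reached 5, where FPKM is the number of reads on a gene divided by its length and by a factor for the library. In each medium, the median of log2(FPKM + 1) over the 6 libraries was taken. The score of a gene was its median in complete medium minus the lowest of its 11 other medians, and the 100 most negative scores made the list, with 4 identifiers left out by the rule. A member was therefore low when all essential amino acids (EAA) were present, and stayed higher both without any EAA and with each EAA given alone.

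Cells sense a lack of EAA in several ways. Uncharged tRNA activates the kinase GCN2, which slows general translation and raises the transcription factor ATF4, and ATF4 in turn drives genes for amino acid transport, amino acid synthesis and tRNA charging. The kinase complex mTORC1 reads the amino acids inside the cell, with known sensor proteins for leucine and for arginine, and its loss of activity releases genes of autophagy and of the lysosome. Mammary epithelium takes up large amounts of EAA for casein synthesis. No gene symbols accompany the identifiers used here, so it is not known which members belong to these pathways, and the lists of named genes and of epithelial or fibroblast markers could not be matched. The labelled cell type was therefore not checked against its markers.

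The cells were primary, wild-type BMECs from mammary tissue of dairy cows, used at passage 6 and serum-starved overnight before treatment. NEG was DMEM-F12 medium without EAA, POS was the complete DMEM-F12 medium, and the other 10 media were NEG with L-arginine (Arg), L-histidine (His), L-isoleucine (Ile), L-leucine (Leu), L-lysine (Lys), L-methionine (Met), L-phenylalanine (Phe), L-threonine (Thr), L-tryptophan (Trp) or L-valine (Val) added. Each EAA was given at its own level in the complete medium, so the concentrations differed between EAA, and arginine had the highest. All media shared the other components of DMEM-F12. The labels and the methods name different culture plates and library kits, which apply to all libraries alike, and how many cows gave cells was not stated. The paper calls the 6 libraries of a medium biological replicates, but neither it nor the labels say whether they came from separate animals or cultures, so the p-values measure the spread between these libraries.

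Reads recovered on genes ranged from 12006111 to 18602428 per library, with a median of 15865509. A member had a median of 445.5 reads in a POS library and 1958 reads in another library, and 6 of the member values were at 0. These were 3 members in POS_4, 2 in Leu_1 and 1 in Arg_4. The same 3 libraries had the lowest mean of log2(FPKM + 1) over the ranked genes, at 3.85 in Leu_1, 4.11 in Arg_4 and 4.15 in POS_4. They also had the fewest genes above 0, with 10495 in Leu_1, 11838 in Arg_4 and 13537 in POS_4, against 15211 to 18393 in the other 69 libraries. In the paper's read statistics, Arg_4 and Leu_1 had the lowest mapping efficiency, well below all other libraries, while POS_4 lay within the range of the rest. Whether these traits bear on the members was not tested beyond the values given without these libraries. NEG_2 and Val_3 also stood apart from their replicates in several members, and their values are given where they bear on a result. RNA came from whole cultures, so fewer cells that express a gene and less RNA per cell cannot be told apart.

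The members were clearly separated in level between POS and the other media, which is what selected them. The mean of log2(FPKM + 1) over the 100 members was between 3.56 and 3.95 in the 6 POS libraries, with a median of 3.81. In NEG it was between 5.92 and 6.04, with a median of 5.97. The lowest of the 66 other libraries was Arg_4 at 5.08, followed by Leu_1 at 5.10, and no library of another medium overlapped with POS. Arg had the lowest median of the single-EAA media at 5.52 (range 5.08 to 5.64), and its 6 libraries all lay below the 6 NEG libraries, as did those of His and Leu. Medians of the other 9 media lay between 5.77 in His and 6.00 in Ile and Lys. Phe, with a range of 5.86 to 6.00, and Thr, with a range of 5.85 to 5.98, overlapped with NEG, and so did Ile, Lys, Met, Trp and Val. Over all ranked genes, the same mean was at least 4.524 in NEG, and at most 4.522 in Arg and 4.459 in Leu. Ile, Lys, Met and Trp also lay wholly below NEG there, whereas His_1, at 4.546, lay within the NEG range. The separation of Arg and Leu from NEG was thus not particular to the members.

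**Figure D1:**
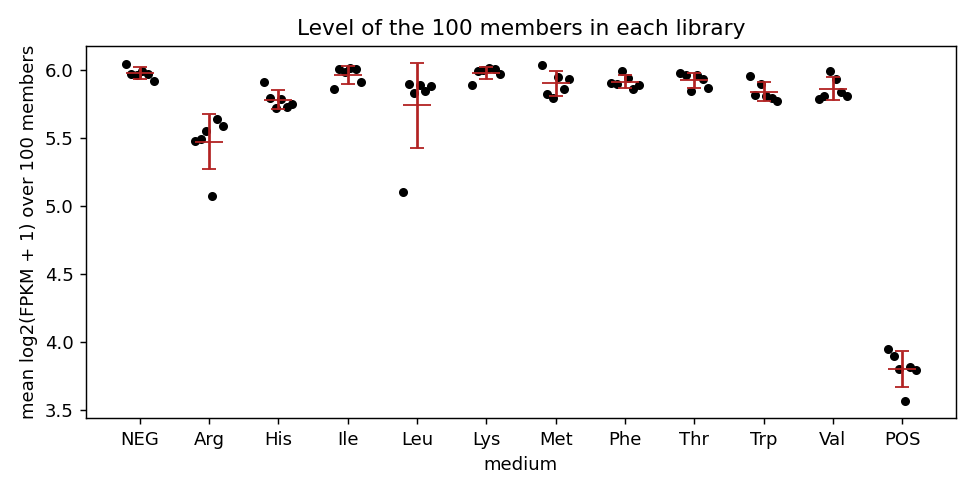
Mean of log2(FPKM + 1) over the 100 members (vertical axis) in each of the 72 libraries, by medium (horizontal axis), with points for libraries and red marks for the mean and SD of 6 libraries. The POS libraries sit between 3.56 and 3.95, the NEG libraries between 5.92 and 6.04, and Arg_4 and Leu_1 lie at 5.08 and 5.10.

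The typical member was several-fold higher without EAA than in complete medium. The ratio of the median FPKM in NEG to that in POS had a median of 4.84 over the members, with a lowest value of 2.45 and a highest of 43.4. It was at least 4 in 58 members, at least 8 in 13 and at least 16 in 2. The score, on the log2 scale, was −3.39 for the first member, had a median of −1.46, and was −1.14 for the member ranked 100. All 6 POS libraries lay below all 66 other libraries in 66 members and in 2.13% of the 8643 genes that met the filter. Without Leu_1, Arg_4 and POS_4 this held for 95 members and for 5.10% of those genes. Both counts follow from the rule and are given as a description.

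The limit of the list was not a step. The member ranked 99 had a median FPKM of 1.41 in POS, 5.22 in NEG and 4.37 in its lowest other medium. For the member ranked 100, the medians were 11.3 in POS, 41.2 in NEG and 26.0 in Arg, its lowest other medium. The first gene outside the list, with a score of −1.13, had 2.87 in POS, 7.89 in NEG and 7.51 in Thr, and the next had 129 in POS, 310 in NEG and 284 in Thr. The genes on either side of the limit thus had almost the same score at very different levels. Of the 4 identifiers that the rule leaves out, 2 would have had ranks 1 and 2, with scores of −4.14 and −3.55, another would have had rank 71 with −1.32, and the last would have had rank 230 with −0.77.

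A property that the score did not use directly was the level of the genes. The mean FPKM of a member over all libraries had a median of 56.4 (quartiles 22.7 to 112), against 17.4 (quartiles 9.75 to 36.9) for the ranked genes. Recovered lengths had a median of 2146 bp (quartiles 1507 to 3027) in the members and 2387 bp (quartiles 1530 to 3556) in the ranked genes. Members were more abundant than the ranked genes and of similar length. A gene with a low FPKM can hardly reach a large difference on the log2(FPKM + 1) scale, so the rule itself favours genes of higher level.

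Members were not alike in the 11 media other than POS. The range between the highest and the lowest of those 11 medians was 0.81 on the log2 scale for the median member (lowest 0.34, highest 2.07), and 0.77 for the median ranked gene. The lowest of the 11 medians was in Arg for 45 members, although Arg was the lowest for 7.19% of the ranked genes. It was in Val for 12 members (29.4% of ranked genes), in Thr for 9 (19.8%), in His for 9 (5.42%), in Met for 8 (6.47%) and in Leu for 7 (11.1%). NEG was lowest for 4 members (10.2% of ranked genes), Trp for 3 (2.20%), and Phe (4.28%), Lys (2.04%) and Ile (1.96%) for 1 each. The highest median was in NEG for 16 members (23.9% of ranked genes), in Val for 16 (19.5%), in Leu for 14 (12.5%), in Thr for 14 (16.4%), in Lys for 12 (1.54%), in Ile for 11 (2.93%) and in Met for 10 (7.34%). It was in Phe for 3 (3.18%), in Trp for 2 (1.76%), in Arg for 1 (6.30%) and in His for 1 (4.72%). These are counts of medians with no test, and the rule itself uses the lowest median.

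**Figure D2:**
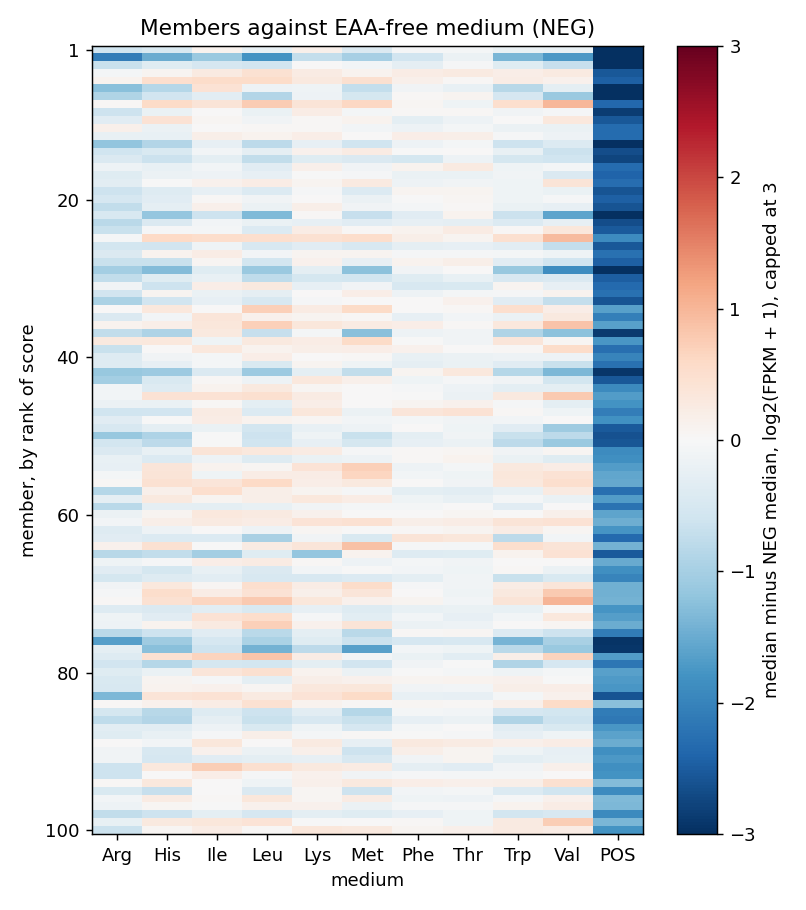
Difference of each medium's median log2(FPKM + 1) from the NEG median (colour, capped at 3), for the 100 members in order of rank (vertical axis) in the 10 single-EAA media and POS (horizontal axis). The POS column is low for every member, and Arg is the single-EAA column with the most members below NEG, at 88.

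For each medium with a single EAA, the 6 libraries were compared with the 6 NEG libraries by limma across the 12121 genes whose mean FPKM reached 1, and a gene was called at a Benjamini-Hochberg adjusted p under 0.05. This asks what 1 EAA alone did to genes that all EAA together lowered. All 100 members were among the genes tested. Fold changes are differences of log2(FPKM + 1), a scale that makes changes of weakly expressed genes look smaller than they are. The rule limits how far a member can fall in any of these media, because a fall to the POS level would have kept the gene off the list. The 10 comparisons share the NEG libraries.

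In Arg, 35 of the 100 members fell and none rose, against 4.35% of all genes tested that fell and 2.29% that rose. Among the 8643 genes that met the filter of the rule, 5.28% fell and 2.31% rose in Arg. The median log2 fold change was −0.48 over the members and −0.08 over all genes tested. The 35 members that fell had log2 fold changes between −2.15 and −0.40. Among the 10 media, in these fits, the members differed most from all genes tested in Arg, both in the share that fell and in the median. The count of members that fell rested on single libraries, and it was 54 (with 1 that rose) without Arg_4, while it was 11 without NEG_1, 16 without NEG_3, 17 without NEG_4, 14 without NEG_5, 19 without NEG_6, 14 without Arg_1 and 15 without Arg_2. The share of all genes that fell moved with it, to 10.7% without Arg_4 and 0.767% without NEG_1. It was 1.27% without NEG_3, 1.32% without NEG_4, 1.17% without NEG_5, 1.8% without NEG_6, 0.875% without Arg_1 and 1.21% without Arg_2. After the FPKM had been rescaled to the same total of reads per library, 23 members fell and 1 rose, while 2.91% of all genes fell and 5.17% rose, and the median of all genes moved by 0.10. On that scale more genes rose than fell in Arg, and on the deposited scale more fell. In 1 fit of all 12 media, 58 members fell and 1 rose, against 15.5% and 12.3% of all genes.

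His was the medium in which most members fell, 45, with 19 that rose, against 34.4% and 23.4% of all genes tested. Trp had 30 members that fell and 8 that rose (27.5% and 15% of all genes). In Val, 31 fell and 17 rose (36.2% and 25.3%), in Leu 28 fell and 17 rose (29.6% and 20.7%), and in Met 26 fell and 16 rose (29.9% and 17.7%). In Val, Leu and Met the share of members called was close to that of all genes or under it in both directions. Among the 8643 genes that met the filter of the rule, 31.3% fell and 16.1% rose in Trp. The members in Trp were under these shares in both directions. In His, 37.2% of those genes fell and 26.7% rose. Ile had 18 members that fell and 21 that rose (25.1% and 15.8%), and Lys had 17 and 18 (25.8% and 13.9%). The median log2 fold change of the members was −0.17 in His (−0.07 over all genes), −0.20 in Leu (−0.17), −0.10 in Trp (−0.06), −0.04 in Met (−0.06), −0.01 in Val (−0.09), −0.01 in Ile (−0.05) and 0.03 in Lys (−0.04). In 1 fit of all 12 media, 32 members fell and 14 rose in His (24.7% and 19.8% of all genes). The numbers were 11 and 8 in Trp (14.0% and 11.9%), 30 and 19 in Val (33.7% and 25.9%) and 43 and 24 in Leu (41.0% and 27.9%). They were 17 and 12 in Met (18.6% and 15.3%), 11 and 18 in Ile (11.2% and 9.44%) and 5 and 7 in Lys (5.68% and 4.94%).

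The splits in the separate fits also depended on the scaling between libraries. With the same total of reads per library, 36 members fell and 25 rose in His, where 29.3% and 29.6% of all genes did. In Trp 20 fell and 18 rose (21.3% and 21.6% of all genes), in Val 23 and 31 (29.5% and 32.5%) and in Leu 19 and 19 (24.0% and 24.7%). The numbers were 22 and 20 in Met (25.6% and 21.5%), 13 and 29 in Ile (19.5% and 20.5%), and 13 and 27 in Lys (20.9% and 17.9%). In Val the majority of the members called turned from falls to rises, as did that of all genes, and the median of all genes had moved by 0.13, so the turn cannot be told apart from a shift of all genes. The members that fell outnumbered those that rose on both scales in Arg, and also in His, Trp, Met and Phe.

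The last 2 media were Phe and Thr. In Phe, 13 members fell and 2 rose, against 7.97% and 4.23% of all genes tested. The count of 15 in Phe was 35 without NEG_2 (25 lower and 10 higher, against 20.6% and 13.4% of all genes) and between 1 and 6 without NEG_1, NEG_4, NEG_5 or any single Phe library. In those 9 fits 1 to 6 members fell, against 0.033% to 3.66% of all genes, and at most 1 rose, against 0.0413% to 1.59%. In Thr no member was called by limma, against 0% of all genes lower and 0.033% higher, while 28 members were lower and 9 higher at an unadjusted p under 0.05, against 20.8% and 13.6% of all genes. Voom on the recovered reads also called no member in Thr, whereas 1 limma fit of all 12 media called 3 lower and 4 higher (0.776% and 2.93% of all genes). Without NEG_2, 20 members were lower and 5 higher in Thr, against 12.2% and 9.26% of all genes. The median log2 fold change of the members was −0.05 in Phe (−0.04 over all genes) and −0.08 in Thr (−0.04).

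**Figure D3:**
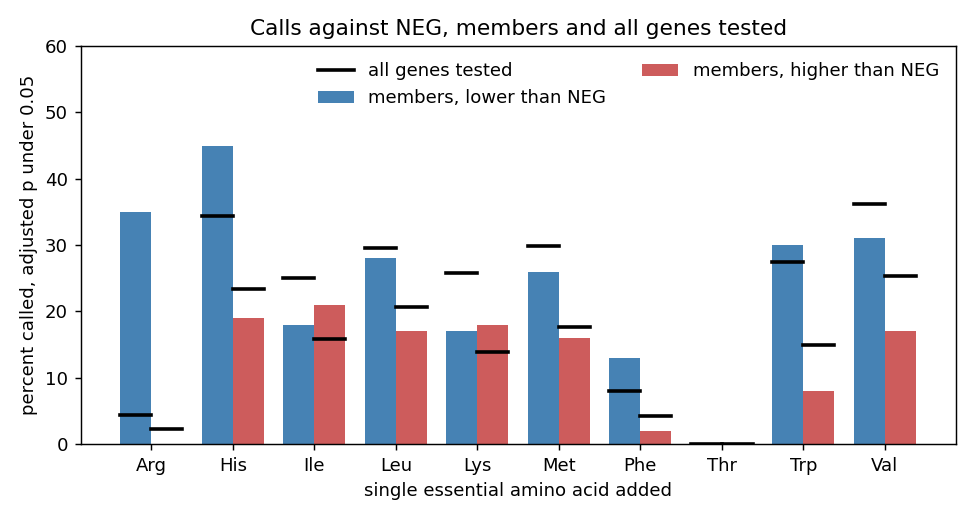
Percent of the 100 members called lower (blue bars) and higher (red bars) than NEG in each single-EAA medium, with black lines for the percent of all 12121 genes tested that were called in the same direction (limma, Benjamini-Hochberg adjusted p under 0.05). In Arg, 35 members lay lower where 4.35% of all genes did, and in Thr no member was called.

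Another limit, an unadjusted p under 0.05 with a log2 fold change over 1 in size, left few members in most media. By this limit Arg had 16 members, all lower, where 3.15% of all genes passed in either direction. Leu had 12 lower and 1 higher (16.9% of all genes), Val 8 lower (11.8%) and His 5 lower (4.59%). Ile had 2 members, both lower (1.58%), and so did Met (3.78%) and Trp (3.09%), while Lys had 1 lower member (1.66%). No member passed in Phe (0.38% of all genes) or Thr (0.512%). In Leu and Val the share of members was under that of all genes, and in Arg it exceeded that of all genes by more than in any other of the 10 media.

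Few members covered much of the distance between NEG and POS with 1 EAA. The difference of a single-EAA median from the NEG median was expressed as a percentage of the difference of the POS median from the NEG median, on the log2 scale. In Arg this percentage had a median of 19.4 over the members (quartiles 7.20 to 27.4), and it was above 25 in 34 members. It had a median of 10.4 in His, 5.67 in Leu, 5.07 in Trp, 3.28 in Val, 3.21 in Thr, 2.51 in Phe and 2.42 in Met, and it was −1.05 in Ile and −3.65 in Lys. No member came above 25 in Phe or Thr. In all, 49 members came above 25 with at least 1 EAA and 4 came above 50. The rule removes genes that came closest to POS, so these percentages have an upper limit built in.

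**Figure D4:**
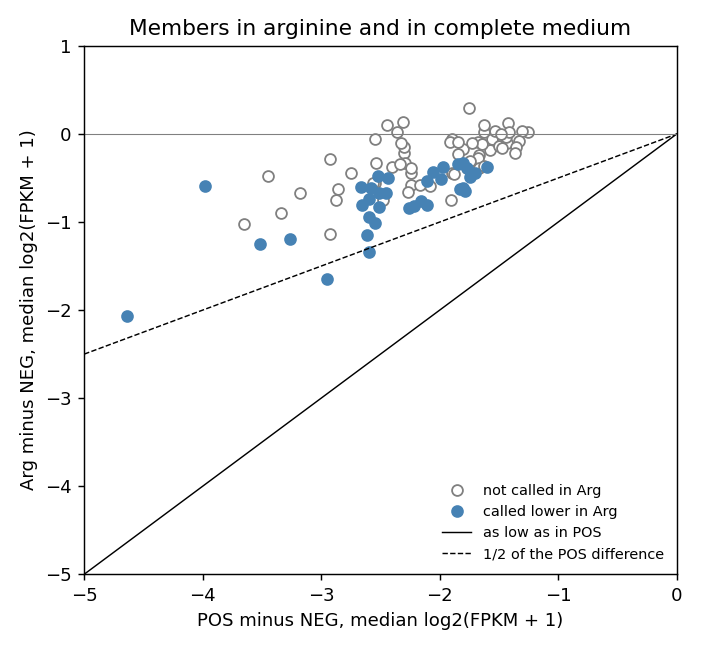
Each point is a member, placed by the POS minus NEG difference (horizontal axis) and the Arg minus NEG difference (vertical axis) of median log2(FPKM + 1), filled where limma called it lower in Arg. The solid line marks equal differences and the dashed line 50 percent of the POS difference. The 35 filled points lie below 0, and 2 members lie under the dashed line.

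The 4 members above 50 percent were reached by 3 different amino acids. The member ranked 76 had a median FPKM of 23.3 in NEG, 6.75 in Arg and 2.14 in POS, which was 55.9 percent of the distance. That value included 1 read-free library each in Arg and POS (Arg_4 and POS_4), and its call in Arg (adjusted p = 0.028 by limma) was lost in 10 of the 19 alternatives, with an adjusted p of up to 0.089. The member ranked 77 had 18.8 in NEG, 5.41 in Met and 1.60 in POS, or 55.6 percent, and here too POS_4 was read-free. The member ranked 83 reached 51.6 percent in Arg, from 172 in NEG to 67.2, with 27.6 in POS. For the member ranked 29, Val gave 51.2 percent, with 230 in NEG, 63.5 in Val and 17.4 in POS. Its Val libraries ranged from 40.7 to 211, and the highest lay within the NEG range of 160 to 241.

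The first member, ENSBTAG00000017007, had an FPKM between 5.23 and 6.98 in POS, with a median of 6.09. In NEG it had 102 to 125 (median 111). Lower values were found in Arg, with 54.7 to 85.1 (median 73.3), in His, with 67.1 to 92.8 (median 81.0), and in Met, with 77.8 to 101.2 (median 82.4). The POS libraries were far below all others, and the Arg, His and Met libraries lay below all NEG libraries. Its log2 fold change against NEG was −0.65 in Arg (standard error 0.12, adjusted p = 0.013 by limma), −0.48 in His (adjusted p = 0.00092) and −0.37 in Met (adjusted p = 0.0057). The call in Arg was lost in 2 of the 19 alternatives, with an adjusted p of up to 0.082 by limma. In the other 7 media it was not called, and in Lys it ranged from 91.0 to 131 with a median of 123. On medians, the first member kept most of its NEG level with any EAA alone, while its lowest library outside POS was Leu_1 at 42.4.

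The second member, ENSBTAG00000011624, had the largest ratio of NEG to POS and behaved differently. Its FPKM ranged from 0.814 to 2.53 in POS (median 1.29) and from 42.8 to 79.8 in NEG (median 56.2). It was 4.93 to 21.6 in Arg (median 12.6), 3.72 to 17.2 in Leu (median 15.4), 10.5 to 46.7 in Val (median 16.4) and 13.04 to 33.3 in His (median 19.2). The Arg, Leu and His libraries were all below the NEG libraries and above the POS libraries, whereas Val_3, at 46.7, lay within the NEG range. Its log2 fold change was −2.15 in Arg (standard error 0.26, adjusted p = 0.0029 by limma), −2.10 in Leu (standard error 0.30, adjusted p = 0.00041), −1.63 in Val (adjusted p = 0.00074) and −1.46 in His (adjusted p = 0.00019). It also fell in Ile, Lys, Met, Phe and Trp, which leaves Thr as the medium where it was not called, with a range of 32.2 to 55.9. Without Leu_1 the log2 fold change in Leu was −1.79.

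**Figure D5:**
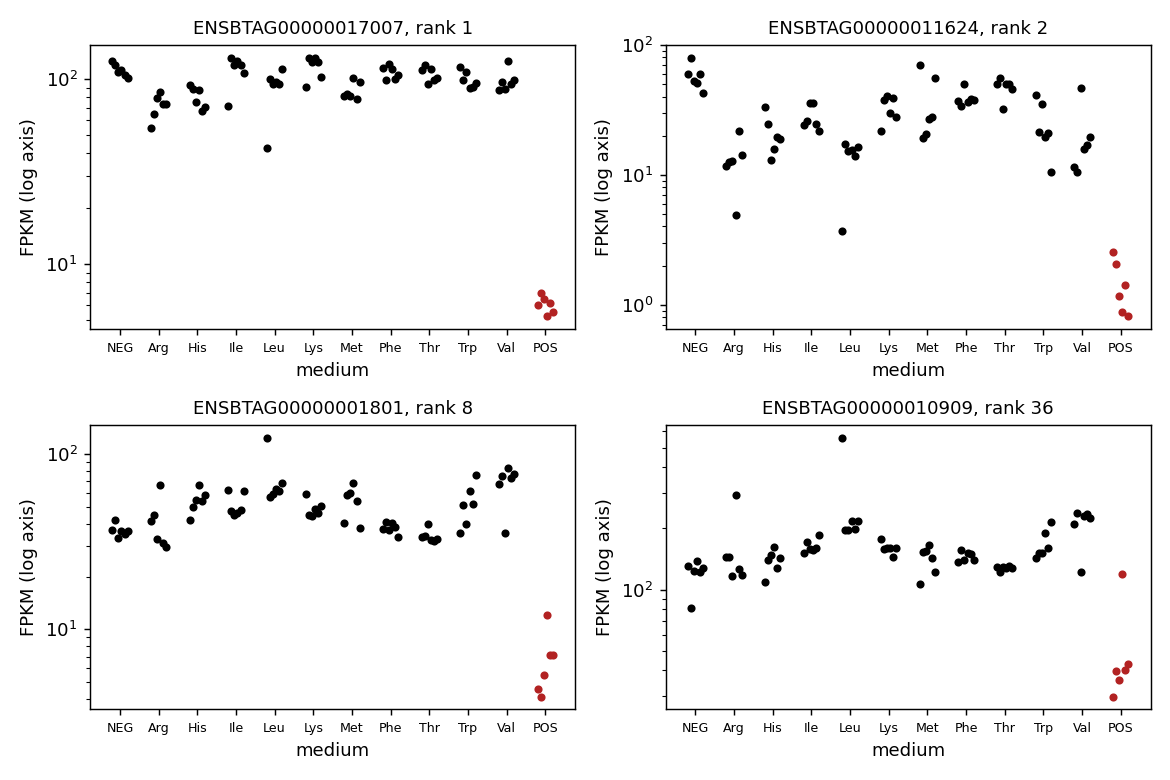
FPKM (log axis) of 4 members in each of the 72 libraries by medium, with POS in red. ENSBTAG00000017007 and ENSBTAG00000011624 are the first members by score, with POS medians of 6.09 and 1.29, and ENSBTAG00000001801 and ENSBTAG00000010909 are higher in Leu than in NEG, with Leu_1 as the highest library in both.

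The member ranked 83 fell in Arg and in no other single-EAA medium. Its FPKM ranged from 47.4 to 89.0 in Arg (median 67.2), from 155 to 316 in NEG (median 172) and from 21.8 to 34.2 in POS (median 27.6). The lowest library of any other medium had 107, in Thr, so the Arg libraries lay apart from all other media on both sides. Its log2 fold change was −1.43 in Arg (standard error 0.20, adjusted p = 0.0047 by limma), and it was not called elsewhere. In NEG_2 it had 316, and in Arg the call held in all 19 alternatives run. In all, 8 of the 35 members that fell in Arg fell in no other medium, and 27 fell in a further medium as well. Of the 527 genes that fell in Arg among all genes tested, 8.35% fell in no other medium and 91.7% fell in a further one. With rises counted too, 32 of the 35 members and 97.3% of those genes were called in a further medium. The 8 are those ranked 24, 35, 48, 82, 83, 92, 93 and 100, and they were picked by their calls.

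The member ranked 77 had the opposite pattern. It ranged from 16.6 to 24.3 in NEG (median 18.8), from 3.41 to 9.10 in Met (median 5.41), from 4.44 to 9.83 in Leu (median 6.43) and from 4.81 to 21.8 in Arg (median 15.6). The Met and Leu libraries were all below the NEG libraries, while Arg overlapped with NEG. Its log2 fold change was −1.59 in Met (standard error 0.19, adjusted p = 0.00026 by limma) and −1.46 in Leu (adjusted p = 0.00014), and it also fell in His, Ile, Lys, Trp and Val. Its log2 fold change in Arg was −0.49 (standard error 0.28, adjusted p = 0.24 by limma).

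The most abundant member in NEG, ranked 65, followed a further combination. It ranged from 1983 to 5002 FPKM in NEG (median 2413), from 688 to 2125 in Lys (median 1134), from 848 to 1626 in Arg (median 1364) and from 373 to 628 in POS (median 422). All Arg libraries lay below the NEG libraries, and Lys overlapped with NEG in its highest library. Its log2 fold change was −1.21 in Lys (adjusted p = 0.0074 by limma), −1.11 in Arg (adjusted p = 0.026), −1.02 in Ile and −0.92 in His, and all of these were called. In Met, Leu and Val it was not called, with medians of 2581, 1880 and 3241. The call in Arg was lost in 8 of the 19 alternatives, with an adjusted p of up to 0.094 by limma.

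Some members rose with single EAA although all EAA together left them low. The largest rises among called members were those of ENSBTAG00000010909 (rank 36) and ENSBTAG00000001801 (rank 8), both in Leu and picked after their values were seen. That order rested on Leu_1, since without it the rises were 0.78 and 0.75 on the log2 scale, under those of 0.89 for the member ranked 54 in Met and 0.89 for the member ranked 71 in Val. ENSBTAG00000010909 had 29.8 to 120 FPKM in POS (median 40.04), where POS_4 was the highest and the next library had 43.2. It ranged from 81.2 to 138 in NEG (median 126), from 196 to 558 in Leu (median 207) and from 122 to 239 in Val (median 227). All Leu libraries were above all NEG libraries, and Val_3, at 122, was the 1 Val library within the NEG range. It rose by 1.02 on the log2 scale in Leu (standard error 0.25, adjusted p = 0.0064 by limma) and by 0.78 in Val (adjusted p = 0.0024).

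ENSBTAG00000001801 had 4.14 to 12.1 FPKM in POS (median 6.30), 33.0 to 41.9 in NEG (median 36.2), 57.2 to 124 in Leu (median 62.3) and 35.3 to 83.6 in Val (median 73.9). The Leu libraries again lay above all NEG libraries, and Val_3 again lay within them. It rose by 0.91 on the log2 scale in Leu (standard error 0.17, adjusted p = 0.0017 by limma), by 0.84 in Val (adjusted p = 0.0015) and by 0.55 in His (adjusted p = 0.00067). It was called higher in 7 of the 10 media and in Arg had a log2 fold change of 0.11 (adjusted p = 0.66 by limma).

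Over the 10 comparisons, 60 members fell in at least 1 medium, against 48.1% of all genes tested, and 23 of them fell in 5 or more, against 25.6%. Rises were seen in 39 members (36.9% of all genes), of which 11 also fell in another medium (2.5% of all genes did both). The counts of members that fell in 5 or more media and of members that rose were near those shares. No call in any medium was made for 12 members (17.5% of all genes), ranked 9, 11, 12, 16, 27, 31, 47, 58, 62, 63, 96 and 97. The member ranked 12 is an example, with 21.8 to 50.5 FPKM in NEG (median 45.2), 35.1 to 42.3 in Arg (median 38.8) and 7.77 to 9.17 in POS (median 8.39). NEG_2, at 21.8, was the lowest NEG library, and the Arg libraries lay above it and below the other 5 NEG libraries, which had 43.8 to 50.5. The 10 comparisons share NEG, so calls in several media are not independent.

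Arg was also set against the mean of the other 9 single-EAA media, a contrast chosen after the calls in Arg were seen. The rule used the lowest of the 11 medians, and Arg was that median for 45 members, so the contrast is a description with no test. The median difference over the members was −0.37 on the log2 scale, and over all genes tested it was 0.00. Without Arg_4 and Leu_1 the median over the members was −0.32 (0.04 over all genes), and after scaling by total reads it was −0.35 (0.02). The same difference for each of the other 9 media had medians over the members between −0.11 in Leu, where all genes had −0.12, and 0.15 in Lys, where all genes had 0.02.

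The choice of the lowest medium shaped the list. Had the 100 genes been chosen by POS minus NEG alone, 60 of the members would have been among them. Of the 40 other genes so chosen, the lowest single-EAA median was in Val for 19, in Leu for 9, in Met for 5, in Arg, His and Trp for 2 each and in Ile for 1. Their median percentage of the NEG to POS distance covered in Arg was 44.0, against 19.4 in the members.

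Within a medium, the members varied about as much as other genes. The SD of log2(FPKM + 1) between the libraries of a medium had a median of 0.26 over the members and 0.29 over the ranked genes. The median correlation of pairs of members, in their deviations from the means of their media over 72 libraries, was 0.15, against 0.03 for pairs of ranked genes. Without POS_4, Leu_1, Arg_4 and NEG_2 these were 0.076 and 0.010. A correlation of 0.3 or more was found in 40.4% of member pairs and 36.2% of ranked pairs, and in 35.8% and 35.6% without the 4 libraries. These correlations share library, depth and scaling and are a description.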

How the data were processed

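RNA-seq of 72 BMEC libraries, 6 in each of 12 media, was used. The authors deposited FPKM for 29550 genes, per the labels made with HISAT2 (2.0.5), StringTie (1.3.3b) and featureCounts (1.5.0-p3), and the build they mapped to was not given in the sources read here. Whole reads were recovered for all 23683 genes above 0 (tolerance 0.001 reads) and give the depth.

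Comparisons with NEG used limma (3.58.1, R 4.3.3) on log2(FPKM + 1), with its prior trended, 6 against 6 libraries, with Benjamini-Hochberg adjustment over 12121 genes. In reads simulated for Arg against NEG, with 12121 genes of which 200 were changed 2-fold, 85.5% of the changed genes were recovered and 6 unchanged genes were called. The simulation took its spread from the NEG libraries alone, and its changed genes from those with more reads. The mean over the members had an SD of 0.041 in NEG and 0.20 in Arg, so these rates need not hold for the measured Arg libraries. The rest used Python (3.11.15). Same-numbered libraries of Trp and NEG deviated together (6 correlations of 0.102 to 0.244), which was not so in the other 9 media, and the labels name no shared batch. Blocking on the number gave 39 members called in Trp in place of 38. The 38 without the block were 30 lower and 8 higher, against 27.5% and 15% of all genes tested. The shares of all genes with the block in Trp are not given here.

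The members, lists and tests were chosen with earlier results of these data known. Lists of symbols and markers and promoter motifs were not run, because no identifier matched the reference table of genes. Identifiers were to be given for the first 2 members and those just inside and just outside the limit of the list. The last 2 are described by rank, and 2 identifiers that rose were added after their values were seen. Alternatives were another pseudocount (0.1), filter, scaling, block, fit, limit and unit, and each library left out.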

Additional observations from a re-analysis of the deposited data

Results flagged for a closer look

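In each medium, Dixon's test was applied to the highest and lowest library, for the mean over the 100 members and for the FPKM of the members ranked 1, 2, 8, 36, 65, 77 and 83. A library stood apart in 24 of 96 groups, about 5 being the number chance gives, and 11 libraries were involved. The measures share libraries and are not independent. Leu_1, Arg_4 and POS_4 had 10495, 11838 and 13537 genes above 0, against 15211 to 18393 in the other 69 libraries, and the part of this in the values was not tested.

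In the mean of log2(FPKM + 1) over the members, Arg_4 stood apart at 5.08 (others 5.48 to 5.64), Leu_1 at 5.10 (others 5.83 to 5.90) and Lys_1 at 5.89 (others 5.97 to 6.02). Leu_1 was also apart in the FPKM of rank 1 (42.4), rank 2 (3.72), rank 8 (124) and rank 36 (558), below its replicates in the first pair and above them in the last. Arg_4 was apart in rank 36 (294, others 117 to 145) and POS_4 in rank 36 (120, others 29.8 to 43.2).

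Val_3 was apart from the other Val libraries in rank 2 (46.7, others 10.5 to 19.5), rank 8 (35.3, others 67.1 to 83.6), rank 36 (122, others 210 to 239) and rank 77 (17.9, others 5.53 to 9.31), and on each occasion it lay towards the NEG level. NEG_2 was apart in rank 36 (81.2, others 122 to 138), rank 65 (5002, others 1983 to 2590) and rank 83 (316, others 155 to 183). Ile_1 was apart in rank 1 (71.9), rank 65 (3292) and rank 83 (361), and Phe_3 in rank 2 (49.9) and rank 65 (2244). Val_4 had 125 in rank 1, Thr_3 had 39.7 in rank 8 and POS_1 had 628 in rank 65, each as the highest of its medium.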

How the results depend on the processing

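The number of members called in Arg, 35, was 22 with no filter on low FPKM, 3 with the replicate number as a block, 59 in 1 fit of all 12 media and 16 by the limit on fold change, and it ranged from 11 to 55 with a library left out. In all 19 alternatives the share of members that were lower exceeded that of all genes, by 3.74 to 51.9 times (3 members against 0.0578% with the block). By the limit on fold change, the counts were 5 in His, 2 in Ile, 13 in Leu, 1 in Lys, 2 in Met, 0 in Phe, 2 in Trp and 8 in Val. In 1 fit of all media they were 12 in Lys (5 lower and 7 higher, against 5.68% and 4.94% of all genes), 6 in Phe (4 and 2, against 1.03% and 2.55%), 7 in Thr (3 and 4, against 0.776% and 2.93%) and 19 in Trp (11 and 8, under the 14.0% and 11.9% of all genes). For Phe the count was 4 with no filter, all lower (1.07% of all genes were), and 0 with the block, as for all genes. With a library left out, Phe ranged from 1, lower (0.033% of all genes without Phe_5), to 35, and Thr from 0 to 25. Both highest counts were without NEG_2, where 20.6% of all genes were lower and 13.4% higher in Phe, and 12.2% and 9.26% in Thr. The block changed no other count by over 1.5 times. The causes were not tested. Of the 100 members, 92 to 97 stayed under another pseudocount, filter, scaling or mean, at least 94 without any library tried, and 60 with POS minus NEG alone. The median score of the 100 members, −1.46, was −2.11 when scored by POS minus NEG. The 17 fold changes of named members kept their direction in all 323 alternatives and their side of the threshold in 298. The 6 member values at 0, in POS_4, Leu_1 or Arg_4, were in the 3 libraries with the fewest reads, 12006111 to 13575591 against 14192520 in the next, and the part of depth in them was not tested.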

Other observations

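Rows of the table without an Ensembl identifier, 1980 in all, were outside the rule. Of the 100 such rows with a mean FPKM of at least 5, 4 had a score at or below that of the member ranked 100. The most negative score among them was −2.41, with a median FPKM of 0.285 in POS, 15.3 in NEG and 5.84 in the lowest other medium. It would have ranked between the members at 5 and 6.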
